A study of Homo sapiens with 12 samples.

Results

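Apigenin alone was compared with no treatment in MDA-MB-231 cells, using the 3 arrays of cells given apigenin and the 3 arrays of untreated control cells, 6 of the 12 arrays of the series. These 6 were chosen by their labels, and every probe set with exactly 1 gene symbol was eligible. The apigenin group received 40 µM apigenin for 24 h without TNFα. The control group received neither agent. The other 6 arrays held cells given TNFα at 40 ng/ml, alone or together with apigenin at 40 µM, for 24 h, and were used to ask whether the apigenin differences were also found beside TNFα. MDA-MB-231 is a permanent line grown from a pleural metastasis of a triple-negative breast carcinoma, so every group shares the genome of 1 tumour, and the cells are mesenchymal in character. The labels call the treatments sub-lethal and say that they were made up in HBSS, a buffered salt solution. The sources do not say whether control cells were given that solution or a vehicle.

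Apigenin is a flavone found in parsley and chamomile. It is known as an inhibitor of several protein kinases, among them casein kinase 2, and as a ligand of the aryl hydrocarbon receptor, and in many cell lines it holds cells at the transition from G2 to mitosis. Genes of that transition are switched on late in the cell cycle through CCAAT boxes, which bind NF-Y, and through the cell cycle homology region (CHR), which binds the DREAM and MuvB complexes.

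All values are log2 expression levels as deposited, a difference of 1 on that scale is a factor of 2, and the 3 values of a group are always given in the order of replicates 1, 2 and 3. A gene was called when its limma p-value, adjusted by the Benjamini-Hochberg method over 20572 genes, was below 0.05. SE is the standard error of a difference in that fit. The labels do not state separate cultures for the replicates. The p-values therefore reflect the scatter among these arrays alone, and that scatter may be technical. In RNA from whole cultures, fewer cells of a kind and less RNA per cell cannot be told apart.

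The 6 arrays had medians of 2.099 to 2.159, arrays within a group correlated at 0.984 to 0.989 across genes, and pairs from the different groups at 0.972 to 0.977. The array numbered 3 of every group had the lowest score on the second principal component, which held 18.8% of the variance. The median of 173 small nucleolar RNAs was also not level. It was 5.69, 5.44 and 5.33 in control and 6.34, 5.77 and 6.09 with apigenin, and its part in the results was not tested beyond a fit that carried it as a covariate. Without the 4 arrays numbered 3, 1505 genes were called in place of 2342, and with the small nucleolar RNA covariate 1290. Vimentin (VIM), the mesenchymal filament protein, read 8.08, 8.06 and 8.07 in control and 7.93, 8.09 and 8.04 with apigenin, while E-cadherin (CDH1) read 2.10, 1.97 and 2.03 in control and did not differ beyond the spread (-0.10, adjusted p = 0.669). None of 10 MDA-MB-231 markers lay at or below the array median on any of the 6 arrays. The median level of 13 leukocyte markers was 1.96 to 2.25 in control and 2.02 to 2.07 with apigenin, and that of 11 fibroblast and endothelial markers 2.08 to 2.25 and 2.06 to 2.16, all near the array medians, with none of these 24 genes called. Among 17 luminal markers 1 rose and 3 fell, at median levels of 2.73 to 3.31 in control and 2.64 to 2.97 with apigenin, and among 9 basal markers 2 fell (1 when any 1 of the 6 arrays was left out). Of the 10 MDA-MB-231 markers EGFR and CAV1 fell and none rose.

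Apigenin was followed by large changes at both ends. Of the 20572 genes, 2342 were called (11.4%), 936 of them higher with apigenin (4.55%) and 1406 lower (6.83%). The counts of called genes in the lists below are to be read beside these shares, which also cover genes of low level. With the replicate number as a block 1435 were called higher and 2066 lower. The median change of a called gene was 0.70 upward and -0.70 downward, the smallest called change was 0.34, and 444 genes changed at least 2-fold, 180 of them upward. Groups did not overlap for 2318 of the 2342 called genes, against 25.5% of all genes. Call and overlap were read from the same values, so this share is not separate evidence for the calls. The largest increases and decreases named below were picked among called genes with separate groups, so their separation follows from that choice. Low signal limited what could be called: among genes with a mean level of 2 or less, 0.264% were called higher and 0.407% lower, against 12.4% and 16.8% of the genes between 6 and 7.

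**Figure D1:**
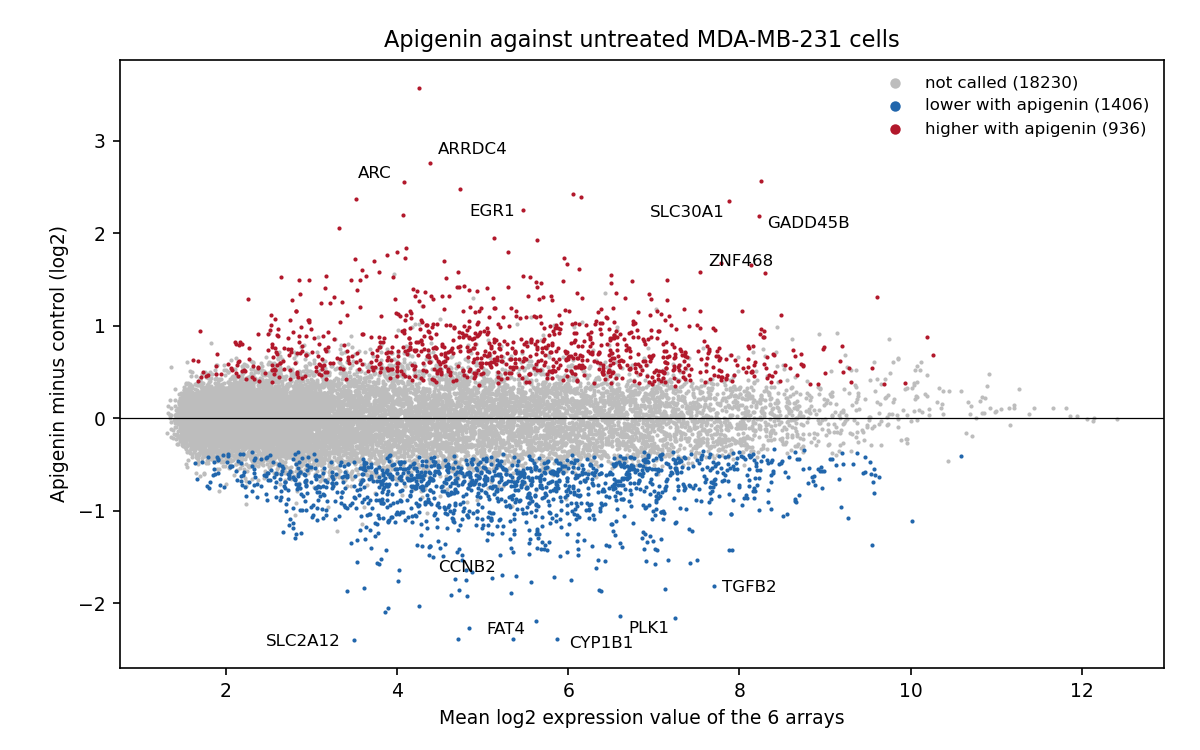
Difference between apigenin and control (log2, vertical) against the mean log2 level over the 6 arrays (horizontal) for all 20572 genes, 1 point each, with the 936 genes called higher and the 1406 called lower in colour. Called genes are few at the low end of the level axis, and the largest named increases and decreases reach past 2 in either direction.

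Genes that respond within minutes to growth factors, stress or calcium were among the largest increases, together with regulators of zinc, glucose and cell growth. The glucose-responsive arrestin-domain gene ARRDC4 rose from 2.93, 2.92 and 3.15 to 6.01, 4.98 and 6.29. SLC30A1, the zinc exporter of the plasma membrane, rose from 6.59, 6.69 and 6.83 to 9.16, 8.83 and 9.17. In both genes every apigenin array lay more than 1 log2 unit above every control array, and apigenin array 2 was the lowest of its group. The increases were 6.78-fold for ARRDC4 (2.76, SE 0.30, adjusted p = 7.1e-05) and 5.1-fold for SLC30A1 (2.35, SE 0.13, adjusted p = 4.9e-07). RASD1, a Ras-related protein that dampens G protein signalling, went from 3.90, 3.33 and 3.27 to 6.08, 5.70 and 6.16, 5.57-fold (2.48, SE 0.22, adjusted p = 1.8e-05). KICS2, a subunit of the KICSTOR complex that holds back mTORC1, went from 2.87, 2.73 and 3.34 to 5.39, 4.73 and 5.39, 4.57-fold (2.19, SE 0.25, adjusted p = 1.1e-04). Neither gene had overlapping groups, which the rule for named genes required of the largest increases. The schlafen gene SLFN5 went from 4.60, 4.96 and 5.28 to 7.28, 7.35 and 7.39, 5.26-fold. RRAD, a small GTP-binding protein that restrains calcium channels and glucose uptake, went from 2.13, 2.43 and 2.32 to 4.50, 4.17 and 4.38 (2.06, SE 0.17, adjusted p = 1.2e-05). The kinase gene SIK1 went from 4.31, 3.77 and 4.39 to 6.15, 5.86 and 6.32 (1.95, SE 0.18, adjusted p = 2.0e-05). Its product acts in the cAMP and LKB1 pathways. In all 3 of these genes the lowest apigenin array was above the highest control array by more than 1 unit. The solute carrier SLC10A5 (1.83), the citrate synthase methyltransferase CSKMT (1.73) and the histone genes H2BC1 (1.80) and H2BC5 (1.73) were also among the 15 largest increases that the rule for named genes took. Histone copies are near-identical in sequence, so which copy gave the signal is uncertain.

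The largest decreases included genes of the cell surface and of drug and hormone metabolism. CYP1B1, the cytochrome P450 that oxidises oestradiol and polycyclic hydrocarbons, fell from 6.91, 7.08 and 7.20 to 4.71, 4.52 and 4.78, a 5.25-fold decrease (-2.39, SE 0.16, adjusted p = 1.9e-06). CAVIN2, a coat protein of caveolae, fell from 5.99, 5.71 and 6.04 to 3.37, 3.50 and 3.69. The secreted IGFBP1, which binds insulin-like growth factors, fell from 6.67, 6.48 and 6.49 to 4.26, 4.18 and 4.03. No apigenin array of these 3 genes came within 1 unit of a control array. The atypical cadherin FAT4, an upstream component of Hippo signalling, read 6.56, 6.55 and 7.05 in control and 4.19, 4.53 and 4.86 with apigenin, 4.58-fold lower. TLR3, the endosomal sensor of double-stranded RNA, read 4.77, 4.84 and 5.15 and then 2.83, 2.68 and 3.10 (-2.05, SE 0.18, adjusted p = 1.7e-05). CEMIP, which breaks down hyaluronan, read 5.54, 5.39 and 5.84 and then 3.47, 3.56 and 3.99 (-1.92, SE 0.18, adjusted p = 2.2e-05). ARHGAP18, which switches off RhoA, moved from 7.12, 7.42 and 7.42 to 5.32, 5.62 and 5.40, and DOCK11, an exchange factor for Cdc42, from 5.75, 5.50 and 6.08 to 3.89, 3.55 and 4.13. Groups were separate in each of these genes, which the rule for named genes required of the largest decreases. SLC2A12, a facilitative glucose transporter, had the largest decrease (from 4.83, 4.10 and 5.15 to 2.15, 2.27 and 2.46), and its control arrays were spread over about 1 unit. The organic anion transporter SLCO4A1 fell by 1.87.

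**Figure D2:**
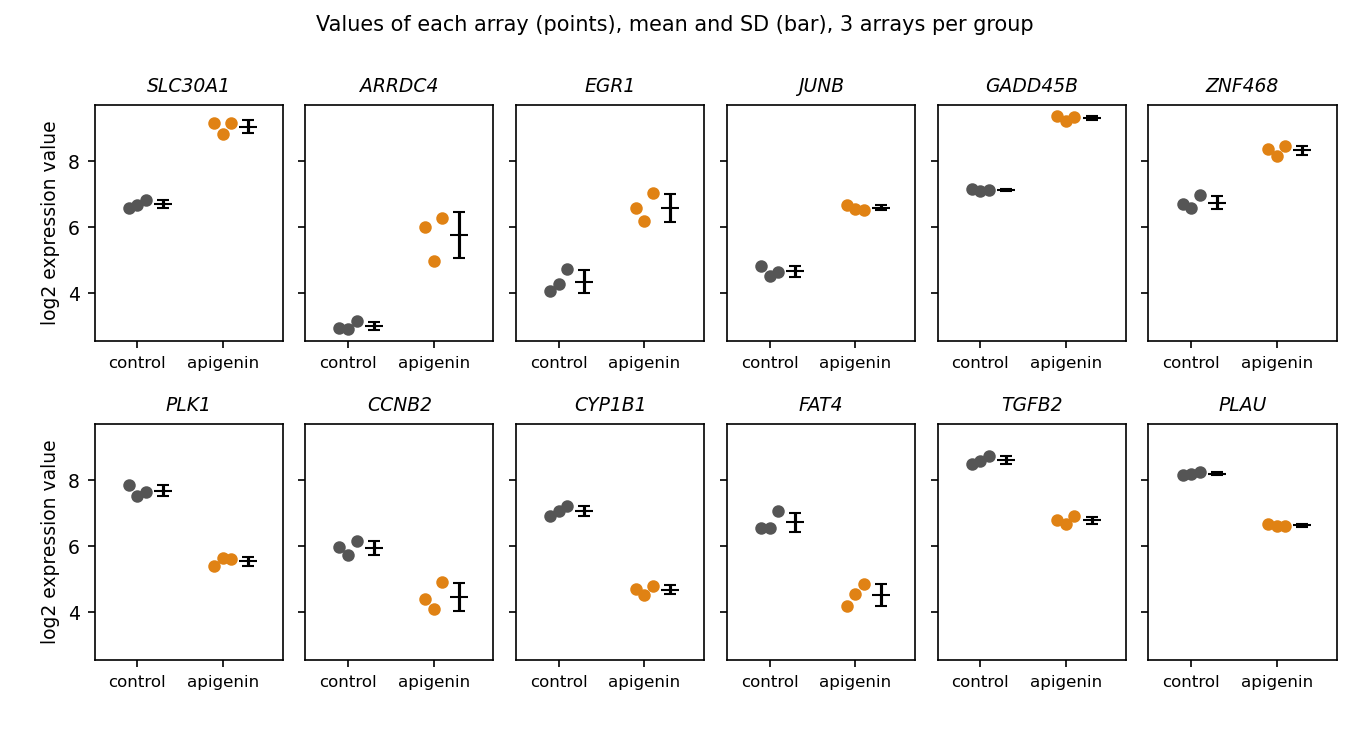
Log2 level (vertical) of 12 genes on each of the 3 control and 3 apigenin arrays, 1 point an array, with the mean and standard deviation of each group as a bar beside them. In the rising genes (SLC30A1, ARRDC4, EGR1, JUNB, GADD45B, ZNF468) the apigenin points lie above the control points, and in PLK1, CCNB2, CYP1B1, FAT4, TGFB2 and PLAU they lie below.

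Genes of mitosis were among the decreases in every step of the process. Over 5 lists of mitotic genes, 67 of 136 measured members fell (49.3%, against 6.83% of all genes) and 5 rose, with a median difference of -0.45 where that of all genes was -0.02. The lists had median levels of 5.79 to 7.46 on the control arrays. At such levels more genes were called, with 16.5% of all genes lower at a mean level of 5 to 6, 16.8% at 6 to 7 and 15.8% at 7 to 8. Fewer fell without the arrays numbered 3 (50) and with the small nucleolar RNA covariate (46), and the median stayed between -0.49 and -0.37 in every fit. The number that rose was 1 without control array 2 or apigenin array 3. The kinases, cyclins and their phosphatases that start mitosis had 13 of 27 lower and 2 higher. PLK1, the kinase that drives entry into mitosis and spindle assembly, read 7.86, 7.53 and 7.65 in control and 5.39, 5.64 and 5.60 with apigenin. CDC25C, the phosphatase that activates cyclin B and CDK1, read 5.84, 5.31 and 5.99 and then 4.19, 3.96 and 3.98. Cyclin B2 (CCNB2) read 5.96, 5.72 and 6.15 and then 4.39, 4.09 and 4.92. In each of the 3 genes all apigenin arrays lay below all control arrays, with CCNB2 the least tight within the apigenin group. PLK1 fell 4.4-fold (-2.14, SE 0.13, adjusted p = 1.1e-06), CDC25C 3.18-fold (-1.67, SE 0.18, adjusted p = 6.8e-05) and CCNB2 2.79-fold (-1.48, SE 0.20, adjusted p = 4.3e-04). CDK1 itself, the catalytic partner of the B cyclins, read 7.61, 7.52 and 7.92 and then 7.53, 7.40 and 7.46, and was not called (-0.22, adjusted p = 0.34). FOXM1, a transcription factor of the same genes, was not called either (-0.06, adjusted p = 0.892).

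Among 45 kinetochore and spindle genes 22 fell and 3 rose (1 without control array 2 or any 1 apigenin array). The centrosome and spindle-pole protein ASPM read 7.81, 7.92 and 8.08 in control and 6.24, 6.64 and 6.31 with apigenin. DLGAP5, which stabilises kinetochore microtubule fibres, read 8.64, 8.57 and 8.68 and then 7.11, 7.21 and 7.29. HMMR, a microtubule-binding hyaluronan receptor, read 6.30, 6.31 and 6.64 and then 4.93, 5.10 and 5.11. The groups stood at least 1 unit apart in all 3 genes. ASPM fell 2.9-fold (SE 0.14 on the log2 scale, adjusted p = 1.7e-05), DLGAP5 by 1.43 (SE 0.10, adjusted p = 2.9e-06) and HMMR by 1.37 (SE 0.15, adjusted p = 6.8e-05). SPC24, a subunit of the NDC80 complex that grips microtubules, fell by 1.48 (SE 0.13). The centromere protein MIS12, which links that complex to chromatin, went the other way, from 6.48, 6.66 and 6.99 to 7.56, 7.40 and 7.57 (0.80, SE 0.13, adjusted p = 0.0016).

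Of 15 mitotic kinesins 10 fell and none rose, with a median of -0.77. KIF14, needed for cytokinesis, read 7.58, 7.87 and 7.95 in control and 5.98, 6.30 and 6.40 with apigenin (-1.57, SE 0.17, adjusted p = 5.8e-05). KIF2C, which takes wrongly attached microtubules apart, read 7.17, 7.08 and 7.25 and then 5.82, 5.86 and 5.68 (-1.38, SE 0.11, adjusted p = 5.5e-06). Both genes had separate groups with a gap of more than 1 unit. For the anaphase-promoting complex, separase and cytokinesis 9 of 26 fell and none rose, among them DEPDC1 (-1.13), DEPDC1B (-0.98), the RhoA exchange factor ECT2 (-0.78) and ARHGAP11A (-0.74). Chromosome condensation and cohesion had 14 of 24 lower and none higher, but this count was 8 without control array 3 and without apigenin array 1, 6 without all arrays numbered 3, and 5 with the small nucleolar RNA covariate. Both type II topoisomerases, which untangle DNA, were among the 14. TOP2A, found in dividing cells, went from 10.17, 10.30 and 10.24 to 8.81, 8.96 and 8.84 (-1.37, SE 0.10, adjusted p = 3.3e-06). TOP2B, present through the whole cycle, went from 7.16, 7.11 and 7.33 to 5.42, 5.54 and 5.999 (-1.55, SE 0.15, adjusted p = 3.5e-05). Neither gene had overlapping groups. The condensin subunits SMC4 and NCAPD2 fell by 0.77 each. The proliferation marker MKI67 read 9.25, 9.16 and 9.25 and then 8.57, 8.71 and 8.79 (-0.53, SE 0.12, adjusted p = 0.0115), a call that was lost without apigenin array 1, without the arrays numbered 3 and with the small nucleolar RNA covariate.

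Because promoters of late cell cycle genes hold known elements, 5 of the mitotic genes described above, those with the largest decreases among the 24 of 61 that hold both elements, are shown with the bases before the first start site that RefSeq lists (build GRCh38.p14, gene strand, 5′ to 3′). Capitals mark CCAAT and TTTGAA, the core of the CHR, or their reverse complements ATTGG and TTCAAA, and the last base printed is the one before the start.
PLK1, chr16:23678739-23678888, plus strand: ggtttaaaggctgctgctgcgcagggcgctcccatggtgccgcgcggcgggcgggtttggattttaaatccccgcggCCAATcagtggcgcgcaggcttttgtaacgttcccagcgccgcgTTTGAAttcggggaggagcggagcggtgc
CCNB2, chr15:59104996-59105145, plus strand: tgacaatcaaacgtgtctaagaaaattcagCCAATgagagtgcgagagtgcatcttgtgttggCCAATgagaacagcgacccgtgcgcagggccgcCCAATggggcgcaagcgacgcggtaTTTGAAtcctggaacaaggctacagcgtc
ASPM, chr1:197146670-197146819, minus strand: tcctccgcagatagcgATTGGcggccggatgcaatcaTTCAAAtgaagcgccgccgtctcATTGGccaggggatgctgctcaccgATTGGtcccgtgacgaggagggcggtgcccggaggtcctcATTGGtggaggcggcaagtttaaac
DLGAP5, chr14:55191586-55191735, minus strand: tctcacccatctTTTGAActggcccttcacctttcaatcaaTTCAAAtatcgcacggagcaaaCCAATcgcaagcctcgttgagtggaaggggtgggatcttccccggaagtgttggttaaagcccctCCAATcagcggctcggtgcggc
HMMR, chr5:163460482-163460631, plus strand: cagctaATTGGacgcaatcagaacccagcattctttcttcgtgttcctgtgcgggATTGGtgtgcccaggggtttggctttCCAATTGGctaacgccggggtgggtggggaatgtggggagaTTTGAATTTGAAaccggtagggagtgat
PLK1 and CCNB2 both carry TTTGAA starting 29 bases before the start, with a CCAAT box further upstream. In HMMR the core occurs from bases 28 and 22, directly joined. In DLGAP5 it lies further away, from bases 138 and 109, and in ASPM from base 113. In the 250 bases before the start, searched on both strands with overlapping matches allowed, TTTGAA was found in 13.3% of 35116 RefSeq promoters and in 10.4% of those of tested genes. It was in 29 of the 61 promoters matched to mitotic genes that fell (47.5%) and in 10 of the 53 matched to mitotic genes that were not called (18.9%). Over all genes the shares were 12.8% of those called lower and 9.22% of those called higher. CCAAT was in 32.0% of all promoters, in 39 of the 61 (63.9%) and in 28 of the 53 (52.8%). It was also in all 3 promoters matched to mitotic genes called higher. Over all genes CCAAT was in 36.6% of promoters called lower, 40.8% of those called higher and 34% of those tested. Both elements together were in 4.69% of all promoters, in 24 of the 61 (39.3%) and in 5 of the 53 (9.43%). These are matches of letters, and binding was not measured.

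Genes of DNA replication were called in both directions. Of 47 replication genes 5 rose and 5 fell, with a median of 0.04. With the replicate number as a block 11 fell, and without the arrays numbered 3 the number that rose was 2. FEN1, the nuclease that trims Okazaki fragments, rose from 6.67, 6.36 and 6.85 to 7.80, 7.61 and 7.79 (1.11, SE 0.14, adjusted p = 2.1e-04). ORC6, a subunit of the origin recognition complex, rose by 1.35, and the licensing factor CDT1 by 0.67. MCM3, a subunit of the replicative helicase, fell from 8.14, 7.94 and 7.995 to 7.19, 7.38 and 7.27 (-0.74, SE 0.11, adjusted p = 9.2e-04). FEN1 and MCM3 thus had separate groups in opposite directions, and the primase PRIM1 (-0.65) and the GINS subunit GINS1 (-0.64) moved with MCM3. The sliding clamp PCNA was not called (-0.38, adjusted p = 0.0655). Of 23 nucleotide synthesis genes 4 fell, CTPS2 (-1.04), the ribonucleotide reductase subunit RRM2 (-0.71), GMPS (-0.66) and ADSL (-0.55), and PPAT, the first enzyme of purine synthesis, rose by 0.90. Among 31 genes of G1 and E2F control 3 rose and 6 fell, though none of the 6 was called with the small nucleolar RNA covariate. The CDK inhibitor CDKN1C rose from 2.87, 3.89 and 3.25 to 4.62, 4.45 and 4.81 (1.29, adjusted p = 0.0038), while the pocket protein RBL2 (-1.08), the E2F partner TFDP2 (-0.80) and CDK6 (-0.61) fell, CDK6 not being called without control array 1, control array 3 or apigenin array 2. Cyclin D1 (CCND1) was not called (0.21, adjusted p = 0.354).

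Of 23 replication-dependent histone genes 5 rose and 3 fell (1 without control array 1). Apart from the H2B copies, H3C13 rose by 1.32, and H2BC14 read 8.61, 8.22 and 8.16 in control and 6.17, 6.57 and 5.76 with apigenin. The near-identity of these copies makes each of these assignments uncertain. In homologous recombination and Fanconi repair 7 of 33 fell, among them MRE11 (-0.86), which senses double-strand breaks, and 2 rose. None rose without control array 1, control array 2, apigenin array 1 or apigenin array 3. Between 3 and 6 of that list were called lower when 1 array was left out, with 3 without control array 3 or apigenin array 2. Genes of the p53 response were 5 higher and 6 lower of 29, and 2 and 2 without the arrays numbered 3. Without control array 1 or apigenin array 3 the number higher was 2, and without control array 3 the number lower was 2. The CDK inhibitor p21 (CDKN1A) rose from 4.26, 4.32 and 4.55 to 5.55, 5.59 and 5.48, 2.24-fold without overlap (1.16, SE 0.14, adjusted p = 1.8e-04). DDB2, a sensor of ultraviolet damage, fell by 0.96 and cyclin G1 (CCNG1) by 0.71, while PMAIP1, the BH3-only protein NOXA, rose by 0.72. Of 33 apoptosis regulators and caspases 3 rose and 6 fell, with 1 (without apigenin array 2) to 5 lower when 1 array was left out. In that list TNFSF10, the death ligand TRAIL, fell from 7.82, 7.67 and 7.70 to 6.38, 6.55 and 6.35, 2.48-fold with no overlap (-1.31, SE 0.12, adjusted p = 2.2e-05).

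Immediate early genes were called mostly upward. Of 28 measured, 15 rose (4.55% of all genes did) and 1 fell, with a median difference of 0.59, and 11 still rose with the small nucleolar RNA covariate. Of all genes with a mean level between 4 and 5, 8.51% were called higher, and of those between 5 and 6, 9.98%. JUNB, a subunit of the AP-1 factor, read 4.84, 4.51 and 4.65 in control and 6.68, 6.56 and 6.54 with apigenin. EGR1, a zinc finger factor induced by ERK signalling, read 4.05, 4.27 and 4.72 and then 6.57, 6.19 and 7.04. ARC, best known from synapses, read 2.28, 3.19 and 2.93 and then 5.38, 4.83 and 5.84. In JUNB the 3 values of each group were close together, whereas EGR1 and ARC varied more within groups without overlap. JUNB rose 3.8-fold (1.93, SE 0.12, adjusted p = 1.1e-06), EGR1 4.75-fold and ARC by 2.55. ZFP36, which destroys mRNAs with AU-rich elements, rose 2.88-fold from 4.95, 4.61 and 4.81 to 6.14, 6.06 and 6.74 (SE 0.22 on the log2 scale, adjusted p = 6.6e-04). MYC read 6.24, 5.90 and 6.32 and then 6.88, 6.70 and 6.997 (0.70, SE 0.14, adjusted p = 0.00409). FOS (0.89, adjusted p = 0.0433) and ATF3 (0.60, adjusted p = 0.0226) were called closer to the threshold, and KLF2, the 1 member that fell, changed by -0.76. Each of these 3 was called in 2 of the 6 fits that left out 1 of the 6 arrays. FOS kept its call without control array 1 or apigenin array 2, ATF3 without control array 3 or apigenin array 2, and KLF2 without control array 2 or apigenin array 3.

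Feedback regulators of the same signalling moved in both directions. A list of MAPK phosphatases and Sprouty proteins also held the Ras-related RASD1, which belongs to neither family. Of its 20 genes 6 rose, RASD1 included, and 4 fell, with 3 higher without control array 1, control array 2 or apigenin array 3. DUSP1, which switches off p38 and JNK, rose from 6.10, 5.75 and 6.17 to 7.29, 7.20 and 7.45 (1.30, SE 0.15, adjusted p = 9.6e-05), and RASD1, described above, SPRY4 (0.78) and DUSP5 (0.65) rose too. SPRY1 (-1.08), SPRED1 (-0.99), DUSP6 (-0.53) and DUSP4 (-0.45) fell. DUSP5 was not called without control array 1 or 2 or apigenin array 2 or 3, and DUSP4 was not called without control array 1 or 3 or any 1 apigenin array. GADD45B, a stress-induced activator of the p38 and JNK kinase MEKK4, had almost no spread, with 7.16, 7.10 and 7.13 in control and 9.37, 9.24 and 9.34 with apigenin, 4.55-fold higher. Its relative GADD45G rose by 1.40 (SE 0.18, adjusted p = 2.7e-04), as did PPP1R15A, the phosphatase subunit GADD34, by 0.80, and 5 of the 10 measured genes of that list rose.

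Stress programmes of translation and protein folding changed in part. Of 27 genes of the integrated stress response and serine synthesis 7 rose (25.9%, against 4.55% of all genes) and 3 fell (11.1%, against 6.83%). Without the arrays numbered 3, 4 rose. SESN2 had the largest increase (1.36), and ASNS rose by 0.98 to 1.23 when 1 array was left out. Both were called in every fit. The serine synthesis enzyme PSAT1 rose by 0.78 and the amino acid sensor kinase EIF2AK4 fell by 1.03. Both transcription factors that carry that response gave values short of the threshold, 0.37 for ATF4 (adjusted p = 0.095) and 0.33 for DDIT3 (adjusted p = 0.429). None of 19 cytosolic aminoacyl-tRNA synthetases was called by limma, and their median was 0.02. Of 30 amino acid transporters 2 rose, including SLC1A4 (0.68), and 6 fell, led by SLC38A4 (-1.64), with 2 (without control array 3) to 4 lower when 1 array was left out. Among 30 chaperones and unfolded protein response genes of the endoplasmic reticulum 7 rose (23.3%) and 2 fell (6.67%). ERN1 (1.11), HSPA5, XBP1 and HERPUD1 were among the 7 and were called in every fit. HSPA5 rose by 0.81 to 0.94 when 1 array was left out. Among 22 cytosolic heat shock proteins 3 rose and 1 fell. Of these heat shock proteins 1 rose without control array 2, apigenin array 1 or apigenin array 3, and none fell when any 1 of the 6 arrays was left out. DNAJB1, the HSP40 that stimulates HSP70, rose from 7.13, 6.85 and 7.20 to 8.17, 7.84 and 8.08 with separate groups (0.97, SE 0.13, adjusted p = 4.0e-04). Of 29 proteasome subunits 3 rose and 1 fell, around a median of -0.02, with 1 higher without apigenin array 1 and none without the arrays numbered 3.

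Zinc-handling genes included SLC30A1, one of the largest increases described above, and moved in both directions. Of 36 zinc transporters, metallothioneins and their regulator 7 rose and 3 fell, with a median of -0.00, and 4 rose both without the arrays numbered 3 and with the small nucleolar RNA covariate. MTF1, the transcription factor that senses zinc, read 5.92, 5.83 and 6.26 in control and 7.48, 7.18 and 7.81 with apigenin. The zinc importer SLC39A10 read 6.12, 6.28 and 6.33 and then 5.00, 4.98 and 5.08. Metallothionein MT2A, a zinc buffer, read 8.07, 8.16 and 7.90 and then 7.96, 8.21 and 7.96. MTF1 and SLC39A10 had separate groups in opposite directions, while the MT2A groups overlapped. MTF1 rose 2.8-fold (1.49, SE 0.17, adjusted p = 1.1e-04), SLC39A10 fell 2.33-fold (-1.22, SE 0.14, adjusted p = 8.1e-05) and MT2A gave a difference of -0.00 (SE 0.12, adjusted p = 0.995). MT1F (1.21) and MT1E (1.06) rose, and MT1X did not pass the test (0.37, adjusted p = 0.136) although its apigenin arrays (9.72, 9.82 and 9.96) lay above its control arrays (9.52, 9.41 and 9.48). Metallothionein genes are close in sequence, so their probe sets may share signal.

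The exporter that rose and the metallothionein that gave no difference are shown side by side, with 120 bases before the RefSeq start (GRCh38.p14, gene strand, 5′ to 3′). Capitals mark TGCGCNC or TGCACNC, core forms of the metal response element bound by MTF1, or their reverse complements GNGCGCA and GNGTGCA.
SLC30A1, chr1:211579162-211579281, minus strand: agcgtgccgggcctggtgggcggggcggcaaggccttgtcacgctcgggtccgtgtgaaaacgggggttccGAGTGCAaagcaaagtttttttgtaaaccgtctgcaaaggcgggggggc
MT2A, chr16:56608464-56608583, plus strand: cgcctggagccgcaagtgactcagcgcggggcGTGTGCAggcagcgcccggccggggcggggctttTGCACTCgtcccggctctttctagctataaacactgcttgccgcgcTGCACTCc
SLC30A1 had 1 match in the 250 bases before its start, 49 bases upstream, and MT2A had 7. MT1X had 4 matches, and MTF1 and SLC39A10 had none. The element was found in 24.8% of all 35116 promoters. The number of matches therefore did not order these genes by their change, and a match says nothing about use of the site in these cells.

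Targets of the aryl hydrocarbon receptor were not raised. Of 10 genes of that pathway none rose and 3 fell, CYP1B1 and ARNT2 (-0.89) among them. The classic target CYP1A1 (-0.46, adjusted p = 0.156), the receptor AHR (-0.29, adjusted p = 0.171) and the repressor TIPARP (-0.03, adjusted p = 0.935) did not pass the limma test. NRF2 target genes were 1 higher (none without control array 2 or apigenin array 1 or 3) and 2 lower of 31, and NFE2L2, which encodes NRF2, fell by 0.65. The shares of that list, 3.23% higher and 6.45% lower, were close to those of all genes (4.55% and 6.83%). Neither HMOX1 (0.54, adjusted p = 0.0672) nor NQO1 (-0.24, adjusted p = 0.271), the usual sentinels, was called. Of 26 ABC transporters 1 rose (3.85%) and 2 fell (7.69%), again near the shares of all genes, with the nucleotide exporter ABCC4 (-0.74) lower. Of 22 cyclic nucleotide phosphodiesterases 3 fell (13.6%), led by PDE7B.

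In carbohydrate metabolism, 6 of 23 glycolytic enzymes and pyruvate dehydrogenase kinases fell (26.1%, against 6.83% of all genes). None rose, and 2 (without control array 1) to 6 fell when 1 array was left out. The pyruvate dehydrogenase kinases PDK1, PDK3 and PDK4 were among the 6, so the count is not one of glycolytic enzymes alone. Of 26 glucose-sensing and uptake genes 4 rose (2 without apigenin array 2) and 4 fell (2 without control array 1 or apigenin array 1). TXNIP, the relative of ARRDC4 that responds to the same glucose sensor, rose by 0.70 (SE 0.13, adjusted p = 0.0038) and ARRDC3 by 0.50, which was not called without apigenin array 2. The glucose transporter GLUT1 (SLC2A1) read 9.76, 9.82 and 9.95 and then 9.31, 9.11 and 9.30 (-0.60, SE 0.11, adjusted p = 0.0025). PDK1, a kinase that inhibits pyruvate dehydrogenase, read 7.33, 7.13 and 7.39 and then 6.59, 6.46 and 6.44 (-0.79, SE 0.12, adjusted p = 7.8e-04). Both genes had separate groups, and PDK3 (-0.94, not called without control array 1) and HKDC1 (-0.79), a hexokinase, fell as well. Hypoxia-inducible genes were 9 lower and 1 higher of 25, with a median of -0.34. EGLN1 (-0.89), the oxygen-sensing prolyl hydroxylase, KDM3A (-0.79) and NDRG1 (-0.79) were among the 9. The exception was the peptide hormone adrenomedullin (ADM), which rose 2.67-fold from 4.92, 4.86 and 5.01 to 6.40, 6.32 and 6.32 (SE 0.10 on the log2 scale, adjusted p = 3.5e-06) with a gap of more than 1 unit between the groups.

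Lipid genes moved singly. Of 27 genes of cholesterol synthesis and uptake 3 rose and 3 fell (11.1% each, against 4.55% and 6.83% of all genes). MYLIP, a ubiquitin ligase that limits sterol uptake, rose 3.25-fold from 3.48, 3.56 and 4.05 to 5.19, 5.00 and 6.001 (SE 0.25 on the log2 scale, adjusted p = 6.9e-04). Its apigenin array 3 was the highest, and the groups did not overlap. The sterol enzymes NSDHL (0.70) and PMVK (-1.14) went opposite ways, as did fatty acid synthase FASN (0.87) and the elongase ELOVL6 (-0.72). Of 62 nuclear-encoded subunits of the respiratory chain 1 rose and 1 fell, with a median of 0.11. The 1 that rose was not called when any 1 of the 6 arrays was left out, and the number that fell was then 0 to 2. Among 41 genes of autophagy and lysosomes 4 rose (9.76%) and 3 fell (7.32%), with 1 (without apigenin array 3) to 4 higher when 1 array was left out. WIPI1, which binds the forming autophagosome, fell from 7.37, 6.95 and 7.08 to 5.51, 5.27 and 5.76, more than 1 unit in every pair of arrays (-1.62, SE 0.16, adjusted p = 2.8e-05). Of 20 circadian clock genes 1 rose and 4 fell. The repressor PER2 read 3.24, 2.62 and 3.05 and then 4.17, 4.16 and 4.17 (1.20, SE 0.17, adjusted p = 5.5e-04). The activator CLOCK read 8.06, 8.24 and 8.24 and then 7.26, 7.23 and 7.50 (-0.85, SE 0.12, adjusted p = 6.1e-04). The 2 genes had separate groups, and the CLOCK relative NPAS2 fell by 0.98, a call lost with the mean of its probe sets.

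Genes that build ribosomes were called mostly upward. Of 49 ribosome biogenesis factors and polymerase I subunits 19 rose and 1 fell, with a median of 0.38. UTP14A, a part of the small-subunit processome, rose from 5.66, 5.46 and 5.75 to 6.86, 6.44 and 6.61 (SE 0.14, adjusted p = 4.5e-04), PNO1 rose by 0.92, and NOP58, a core protein of box C/D particles, fell by 0.46, a call lost without control array 2 or 3 or apigenin array 1 or 2. Small nucleolar RNAs, which guide rRNA modification, had 15 of 173 higher and none lower with a median of 0.45. Their number called higher was 6 without the arrays numbered 3 and without apigenin array 1, 8 without apigenin array 3, 9 without control array 2 and 23 with the replicate number as a block. With their own median as a covariate the median of the list was -0.15. The 71 mitochondrial ribosomal proteins were 6 higher and 4 lower, with 0 lower without control array 3 or apigenin array 1. Among 39 hnRNP and SR splicing factors with their kinases 8 rose and 5 fell, with 4 higher without control array 1, control array 2 or apigenin array 3, and 3 lower without control array 3 or apigenin array 1. The SR protein kinases CLK3 (0.96, SE 0.15, adjusted p = 0.0012) and CLK4 (0.93, not called without control array 1 or 2 or apigenin array 3) rose, HNRNPC rose by 0.76, and HNRNPD (-0.83) and HNRNPH3 (-0.62) fell. HNRNPA2B1, a reported binding partner of apigenin, read 7.02, 7.16 and 7.38 and then 7.15, 7.39 and 7.27 and was not called (0.08, adjusted p = 0.807).

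Zinc finger genes with ZNF symbols, most of them DNA-binding repressors with KRAB domains, were called higher more often than lower. Of 496 measured 61 rose (12.3%, against 4.55% of all genes) and 8 fell (1.61%, against 6.83%), with a median of 0.16. With the replicate number as a block 96 rose and 14 fell, and 4 fell without control array 3 or apigenin array 1. The median of the list, relative to the control mean of each gene, was -0.04, -0.10 and 0.14 on the control arrays and 0.11, 0.09 and 0.20 on the apigenin arrays, so control array 3 lay within the apigenin range. ZNF468 read 6.70, 6.59 and 6.97 in control and 8.37, 8.17 and 8.46 with apigenin. ZNF75A read 4.84, 5.05 and 5.56 and then 6.79, 6.95 and 6.73. ZNF622, a ribosome assembly factor despite its name, read 5.37, 4.70 and 5.54 and then 6.70, 6.71 and 6.63. In each the groups were at least 1 unit apart. ZNF468 rose 2.99-fold (1.58, SE 0.15, adjusted p = 2.2e-05), ZNF75A by 1.67 (SE 0.16, adjusted p = 2.2e-05) and ZNF622 by 1.48 (SE 0.19, adjusted p = 2.3e-04). ZNF674-AS1 (1.41), an antisense RNA in the list by its symbol, is uncertain because strand-specific labelling is not stated. ZNF114 fell from 7.14, 6.96 and 7.26 to 5.70, 5.42 and 5.62 (-1.54, SE 0.14, adjusted p = 1.8e-05), and ZNF827 (-0.94, not called without control array 3 or apigenin array 2), ZNF532 (-0.84) and ZNF69 (-0.77) fell less. Gene length, described next, was set beside this. Of the 449 ZNF genes with a length, 12.9% rose and 1.78% fell, while of 4330 other protein-coding genes inside the same quartile range of length (13.2 to 38.0 kb) 6.67% rose and 6.63% fell. With a mean level above 4 the shares were 26.1% and 4.35% of 161 ZNF genes, against 13.3% and 12.2% of 1908 others.

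Called decreases lay in longer genes than called increases. Among 16291 protein-coding genes with a RefSeq length, the median gene spanned 19.3 kb for the 829 called higher (quartiles 9.36 and 39.0 kb), 61.9 kb for the 1364 called lower (24.1 and 144 kb) and 27.3 kb for all. With these genes put in 10 equal groups by length, 4.85% of the shortest group were called higher and 2.09% lower. In the fifth group the shares were 6.45% and 6.69%, and in the longest, of 163 to 2304 kb, 0.798% and 18.2%, which is 13 and 297 of 1629 genes. Restricted to genes with a mean level above 4, 39.7% of 569 genes of the longest group fell and 1.23% rose, and 6.57% and 15.9% of 396 genes of the shortest group. Their median difference was -0.41 and 0.09. Across genes, which are not independent and share these 6 arrays, Spearman's rho between length and difference was -0.196, and -0.290 over the 6636 genes above a level of 4. Leaving out the mitotic lists, the genes called lower had a median length of 63.2 kb.

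The shift was seen array by array. Relative to each gene's control mean, the median of the longest group above a level of 4 was -0.05, -0.14 and 0.19 on the control arrays and -0.46, -0.48 and -0.28 on the apigenin arrays. Those groups were separate, with control array 3 the highest and apigenin array 3 the highest of its group. For the shortest group the values were 0.01, -0.06 and 0.05 and then 0.11, 0.03 and 0.20. Arrays with TNFα alone gave 0.14, -0.02 and 0.31 for the longest group, and those with TNFα and apigenin -0.25, -0.28 and -0.09. The other fits were counted over the whole longest group of 1629 genes, without the cut at a level of 4, where 297 were called lower as reported. That number was 184 without control array 3, 196 without apigenin array 1, 185 without the arrays numbered 3 and 125 with the small nucleolar RNA covariate. The median of the whole group was -0.13 as reported and between -0.26 and -0.11 in every fit. Several decreases named here are of long genes: NRG1 (1135 kb, -0.96), INPP4B (823 kb, -1.27), LTBP1 (453 kb, -1.31), ROR1 (407 kb, -1.39), PDE7B (344 kb), DOCK11 (190 kb), FAT4 (178 kb) and CEMIP (172 kb).

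**Figure D3:**
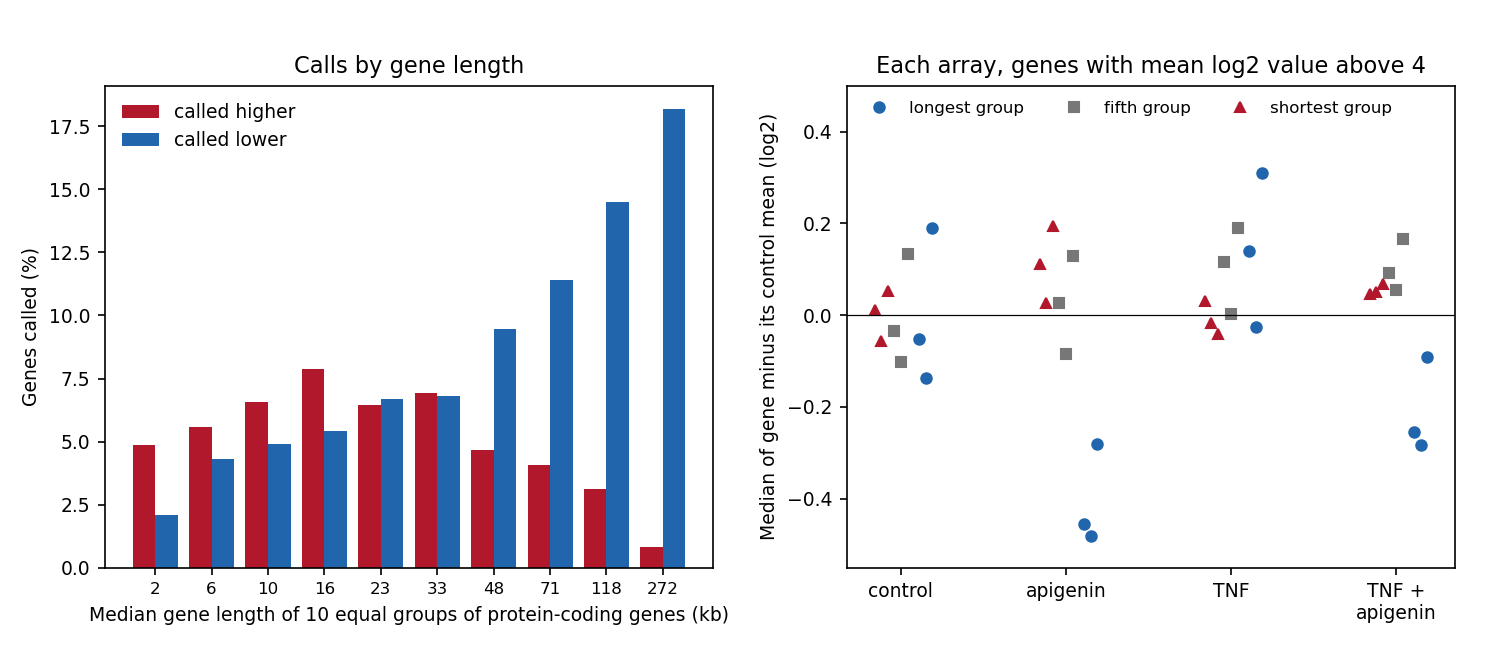
Left, the percentage of protein-coding genes called higher and called lower in each of the 10 length groups, labelled by the median length in kb. Right, for genes with a mean log2 level above 4, the median log2 difference from the control mean on each of the 12 arrays for the longest, the fifth and the shortest group. The share called lower climbs from 2.09% to 18.2% across the groups, and the apigenin arrays lie below the control arrays in the longest group.

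Of 38 receptor tyrosine kinases 5 fell (13.2%, against 6.83% of all genes) and 1 rose (2.63%, against 4.55%), with 2 higher without apigenin array 2. Of protein-coding genes with a mean level above 4, 16% fell and 10.3% rose. The EGF receptor (EGFR) read 7.98, 8.03 and 8.31 in control and 7.17, 7.19 and 7.35 with apigenin. The hepatocyte growth factor receptor MET read 9.04, 9.10 and 9.30 and then 8.41, 8.43 and 8.50. ROR1, a receptor for WNT5A, read 7.26, 7.16 and 7.56 and then 5.91, 6.004 and 5.89. None of the 3 had overlapping groups, and ROR1 had the widest gap. EGFR fell 1.83-fold (-0.87, SE 0.12, adjusted p = 4.7e-04), MET by 0.70 (SE 0.11, adjusted p = 0.0012) and ROR1 2.62-fold (SE 0.14 on the log2 scale, adjusted p = 4.2e-05). MERTK, which recognises dying cells, fell by 1.21 (SE 0.18, adjusted p = 7.5e-04) and EPHB3 rose by 0.78. Of 36 growth factors and IGF-binding proteins 7 fell, including PDGFC (-1.07) and FGF5 (-0.84, not called with the mean of its probe sets). HBEGF, an EGFR ligand, rose by 0.71. In the PI3K, mTORC1 and FOXO pathway 3 rose and 6 fell of 51, with 2 to 5 lower when 1 array was left out (2 without control array 3 or apigenin array 2) and 11 lower with the replicate number as a block. INPP4B, a lipid phosphatase, fell from 4.80, 4.71 and 5.23 to 3.62, 3.65 and 3.67, and RICTOR, the defining subunit of mTORC2, by 0.98.

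Developmental signalling genes were called in small numbers. Of 43 TGF-β and BMP genes 9 fell and 4 rose. The 9 were called in nearly the same number in every fit (8 to 10 among those without 1 array, without the arrays numbered 3 or with the covariate), while the number called higher was 0 without control array 1 or apigenin array 3. TGFB2, a ligand, fell 3.53-fold. Noggin (NOG), the secreted inhibitor of BMPs, read 6.14, 6.30 and 6.20 and then 4.79, 4.65 and 5.16 (-1.35, SE 0.14, adjusted p = 4.2e-05), with no overlap. Of 29 Notch genes 3 fell (10.3%, against 6.83% of all genes) and 1 rose (3.45%, against 4.55%). The ligand JAG1 fell 2.67-fold from 7.53, 7.54 and 7.72 to 6.15, 5.95 and 6.44 (SE 0.13 on the log2 scale, adjusted p = 2.1e-05), again without overlap. The coactivator MAML2 fell by 1.12, and the feedback inhibitor NRARP rose by 0.79. Among 40 Wnt genes 6 fell and 1 rose (none without any 1 control array or without apigenin array 1 or 3), with the receptors FZD7 (-1.19), FZD2 (-1.07) and LRP5 (-1.14) among the 6. Hippo genes and targets of YAP were 7 lower and 2 higher of 33. The YAP target CCN2 rose from 7.81, 7.90 and 8.07 to 9.14, 8.83 and 9.17 (1.12, SE 0.15, adjusted p = 2.9e-04). ANKRD1, another target, fell from 9.77, 9.85 and 9.81 to 8.74, 8.74 and 8.71 (-1.08, SE 0.10, adjusted p = 2.7e-05). Both had separate groups, so these targets moved in opposite directions while YAP1 itself fell by 0.64. Of 30 nuclear receptors 2 rose and 2 fell, shares near those of all genes (4.55% and 6.83%), and none rose without control array 1, control array 2 or apigenin array 3. NR2F6 was among those that fell (-1.13).

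Adhesion, matrix and cytoskeleton genes gave decreases with few increases. The share lower ran from 19% (matrix proteases and inhibitors) to 26.3% (collagens and matrix proteins), against 6.83% of all genes. Of protein-coding genes with a mean level above 4, 16% fell and 10.3% rose. By length, 23.3% of those in the ninth group fell and 39.7% of those in the longest. The lists were not matched for level or length. Of 30 integrins and laminins 7 fell and none rose. ITGA6, a laminin receptor subunit, read 9.06, 9.10 and 9.13 and then 8.30, 8.12 and 8.20 (-0.89, SE 0.10, adjusted p = 1.3e-04), tight in both groups and without overlap. Its partner ITGB4 (-0.57) and ITGB8 (-0.99), which activates TGF-β, fell too. Of 38 collagens and matrix proteins 10 fell and none rose, but 5 fell without control array 3 or apigenin array 1, and 3 without the arrays numbered 3. HAS2, a hyaluronan synthase, read 5.89, 6.01 and 6.54 and then 4.80, 4.79 and 5.24 (-1.21, SE 0.20, adjusted p = 0.0017), with the third array the highest in both groups and a gap between the groups. Matrix proteases and inhibitors were 8 lower and 1 higher of 42, among them ADAMTS15 (-2.03). Of 37 actin and focal adhesion genes 9 fell and 1 rose. ROCK2, a kinase that raises myosin contractility, fell 1.94-fold from 7.45, 7.25 and 7.46 to 6.39, 6.46 and 6.44 (SE 0.10 on the log2 scale, adjusted p = 7.2e-05), non-muscle myosin MYH10 fell by 0.85, and RHOB rose by 0.89. Caveolae and tight junction genes were 5 lower and none higher of 20, with 3 lower without control array 1 or 3 or any 1 apigenin array. CAVIN3 (-0.79) and caveolin-1 (CAV1, -0.60) were called beside CAVIN2. Regulators of epithelial and mesenchymal state were 3 higher and 3 lower of 25, with the repressor SNAI1 (from 2.69, 2.70 and 2.99 to 4.07, 3.92 and 5.20, a change of 1.60 with SE 0.29), the tight junction protein MARVELD2 (1.58) and SNAI2 (0.54, not called without control array 2 or 3 or apigenin array 1 or 3) higher and the mesenchymal cadherin CDH11 (-0.90) lower.

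Interferon-stimulated genes fell more often than they rose. Of 57 measured 15 fell and 2 rose, with a median of -0.31, and 11 to 16 fell when 1 array was left out. PARP14, which modifies proteins with ADP-ribose, fell by 1.24, and IFI6, an interferon-induced protein of mitochondria, rose by 0.71, which was not called without apigenin array 1. SAMD9L, a translation-blocking antiviral factor, read 6.30, 6.02 and 6.50 and then 4.14, 4.39 and 4.63, separate by more than 1 unit. In immune recognition, 3 rose and 3 fell of 33, with 1 higher without control array 1, control array 2 or apigenin array 1, and 1 lower without apigenin array 2. The checkpoint ligand PD-L1 (CD274) rose 2.22-fold from 5.26, 5.35 and 5.68 to 6.70, 6.40 and 6.64 (SE 0.13 on the log2 scale, adjusted p = 1.2e-04), with no overlap. Its relative PD-L2 (PDCD1LG2) fell from 4.59, 4.81 and 5.28 to 3.75, 3.46 and 4.12 (-1.12, adjusted p = 0.0046), also without overlap. CD47, the signal against phagocytosis, fell by 0.52, which was not called without apigenin array 2. Among 34 genes of NF-κB control 4 rose and 3 fell, with 1 higher without control array 2 or apigenin array 3. The kinase IKBKE changed by -1.24 (adjusted p = 0.0092), a call that was lost without the arrays numbered 3. Of 41 chemokines and cytokines 2 rose (4.88%) and 5 fell (12.2%), with 3 lower without control array 3 or apigenin array 2. CXCL8 was higher (0.88, not called without apigenin array 1), and IL6 was not called (-0.23, adjusted p = 0.733).

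**Figure D4:**
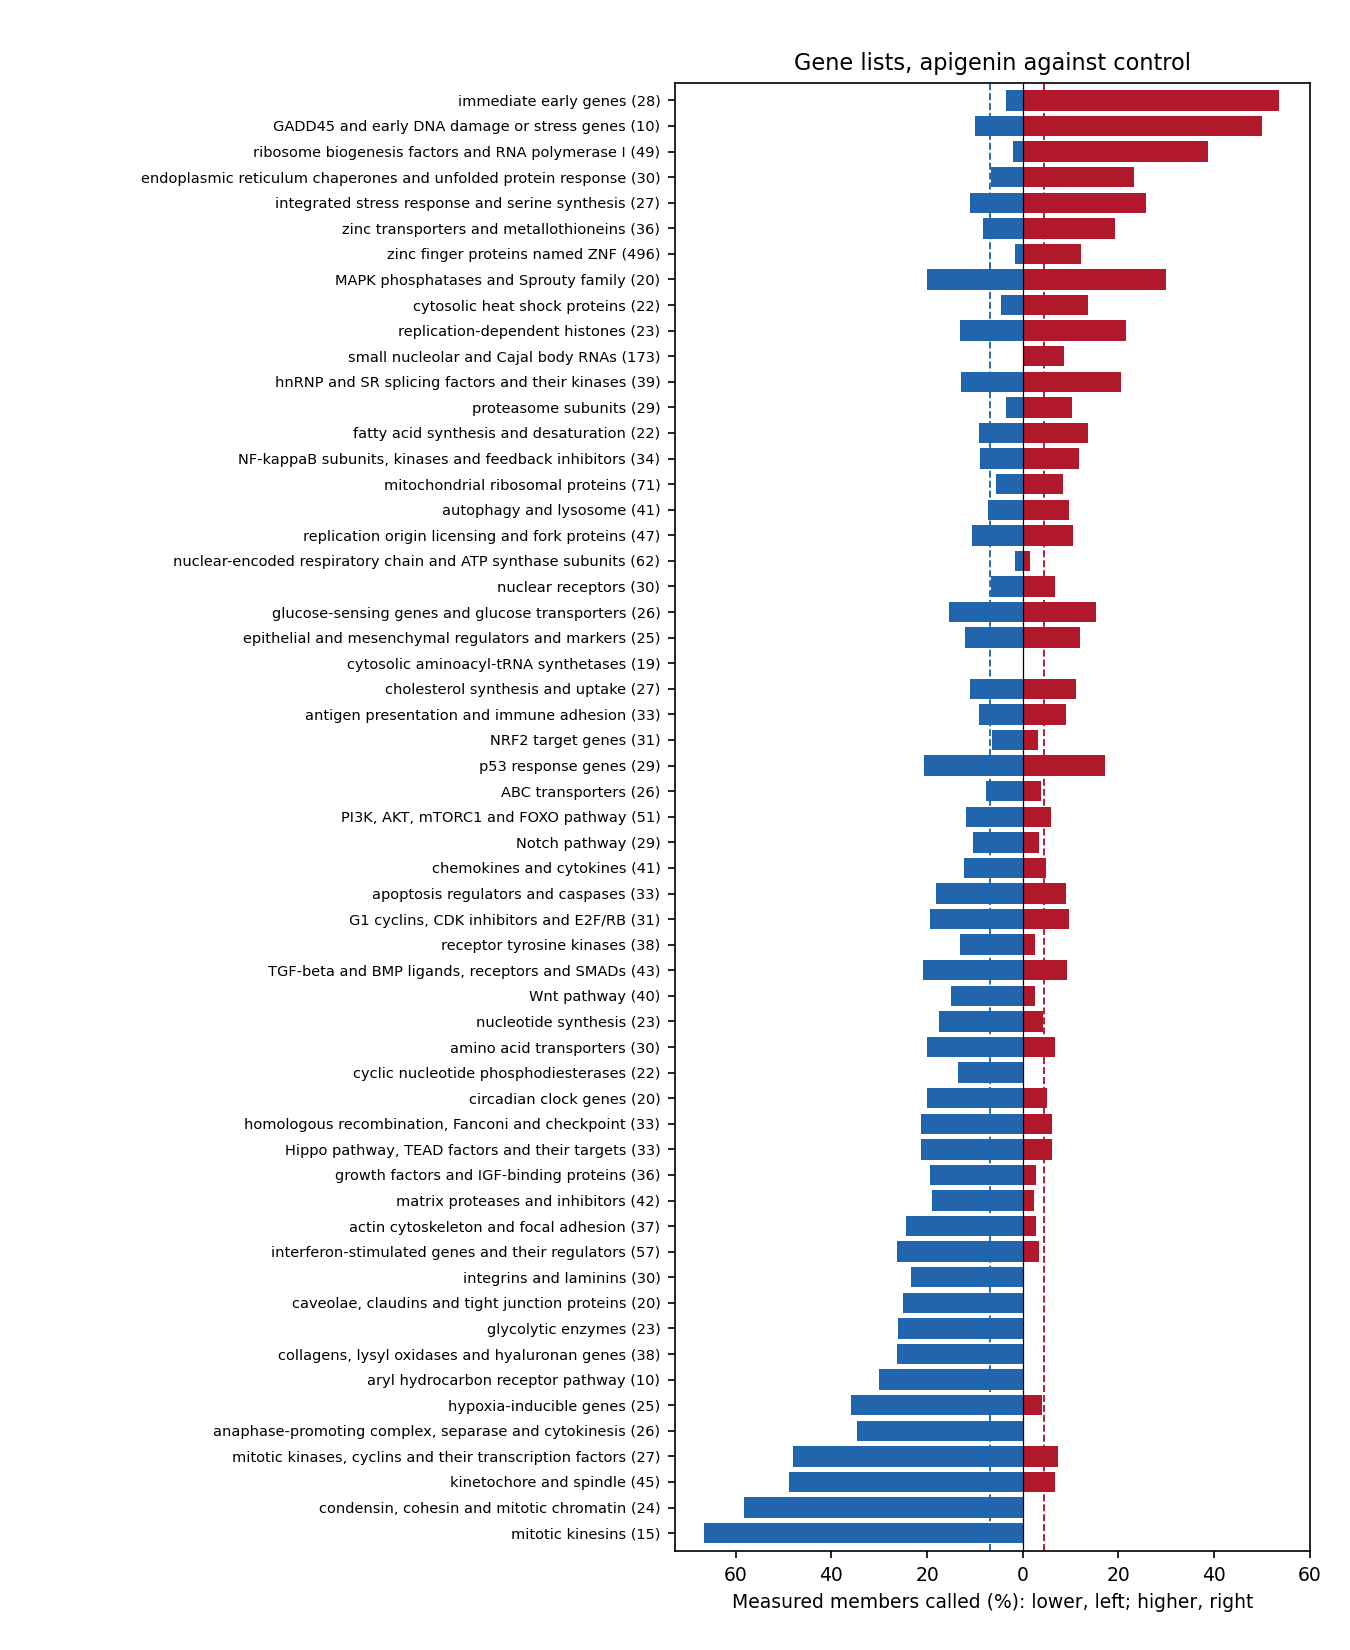
Percentage of measured members called lower (bars to the left) and called higher (bars to the right) for the gene lists, with the number measured in brackets. The dashed lines mark the shares over all 20572 genes, 6.83% lower and 4.55% higher. The kinesin, condensin, kinetochore and mitotic kinase lists reach furthest to the left, and the immediate early and ribosome biogenesis lists furthest to the right among lists with over 20 members.

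The largest increase of a non-coding gene, chosen after its values were seen and outside the rule for named genes, was at the microRNA locus MIR100. It read 2.48, 2.37 and 2.55 in control and 6.26, 5.73 and 6.12 with apigenin. All 3 apigenin arrays were more than 3 units above every control array (3.57, SE 0.20, adjusted p = 4.9e-07). The mature product, whose seed (bases 2 to 8, in capitals) fixes which mRNAs it pairs with, is given by RefSeq on GRCh38.p14 at chr11:122152275-122152296, minus strand.
hsa-miR-100-5p: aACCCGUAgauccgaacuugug
Its host gene MIR100HG was not called (0.30, adjusted p = 0.174), nor were the microRNA loci MIRLET7A2 (0.44, adjusted p = 0.29) and MIR125B1 (-0.10, adjusted p = 0.773) of the same host. Whole-transcript labelling reads the RNA that covers the locus, and the array does not separate the mature microRNA from its precursors.

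Whether the same genes changed beside TNFα was read from the other 6 arrays, which share no array with the comparison above. Of the 2342 genes called with apigenin alone, 2294 (98.0%) had the same sign in the combined treatment against TNFα, where 68.5% of all genes and 64.8% of the genes not called did. There 2085 genes were called (10.1%, 4.21% higher and 5.92% lower), and 1387 were called in the same direction in both, 59.2% of the apigenin list and 66.5% of the other, 565 of them upward. Across genes, which are not independent, the differences correlated at 0.763 over all and at 0.935 over the 2342. SLC30A1 (2.35 alone, 2.43 with TNFα), PLK1 (-2.14 and -2.22), CYP1B1 (-2.39 and -2.50), ZNF468 (1.58 and 1.56) and CD274 (1.15 and 1.06) kept nearly the same size. ASPM (-1.54 and -0.97), DLGAP5 (-1.43 and -0.91), HMMR (-1.37 and -0.87) and TOP2A (-1.37 and -0.98) had smaller values with TNFα, and none of these differences was called. Of the 136 mitotic genes 49 fell and 3 rose there. Of the 496 ZNF genes 78 rose and 9 fell with a median of 0.18, and of the longest group 0.675% were called higher and 16.1% lower.

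The effect of apigenin itself differed with TNFα for 11 genes (0.0535% of those tested), by the difference between both contrasts in limma. The largest was in IL1A, the interleukin that alarms neighbouring cells. It read 1.80, 1.84 and 1.98 in control and 1.79, 1.41 and 1.92 with apigenin, overlapping near the array median. Its difference was -0.16 without TNFα and -3.73 with it, which makes a difference of effects of -3.57 (SE 0.21, adjusted p = 4.7e-06). Complement C3 gave 0.13 and -2.16 (difference -2.29, SE 0.20, adjusted p = 2.0e-04). Both genes read near the array median in untreated cells, where the scale leaves little room for a lower value. Only CXCL8 and ICAM1 were called in opposite directions in the 2 settings. CXCL8 read 3.17, 2.97 and 3.65 in control and 4.48, 3.72 and 4.23 with apigenin, a rise of 0.88 with groups close to each other, against -1.21 with TNFα. ICAM1, an adhesion molecule for leukocytes, changed by 0.52 and -0.48, the first not called without control array 1 or 2 or apigenin array 1 or 3. SAMD9L and the neuropeptide receptor VIPR1 had the larger decrease without TNFα. VIPR1 read 6.23, 6.20 and 6.42 and then 4.95, 4.56 and 4.92 (-1.47, against -0.30 with TNFα, difference 1.18, SE 0.18, adjusted p = 0.0463), and its arrays with TNFα alone were already at 4.71, 4.80 and 4.84.

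**Figure D5:**
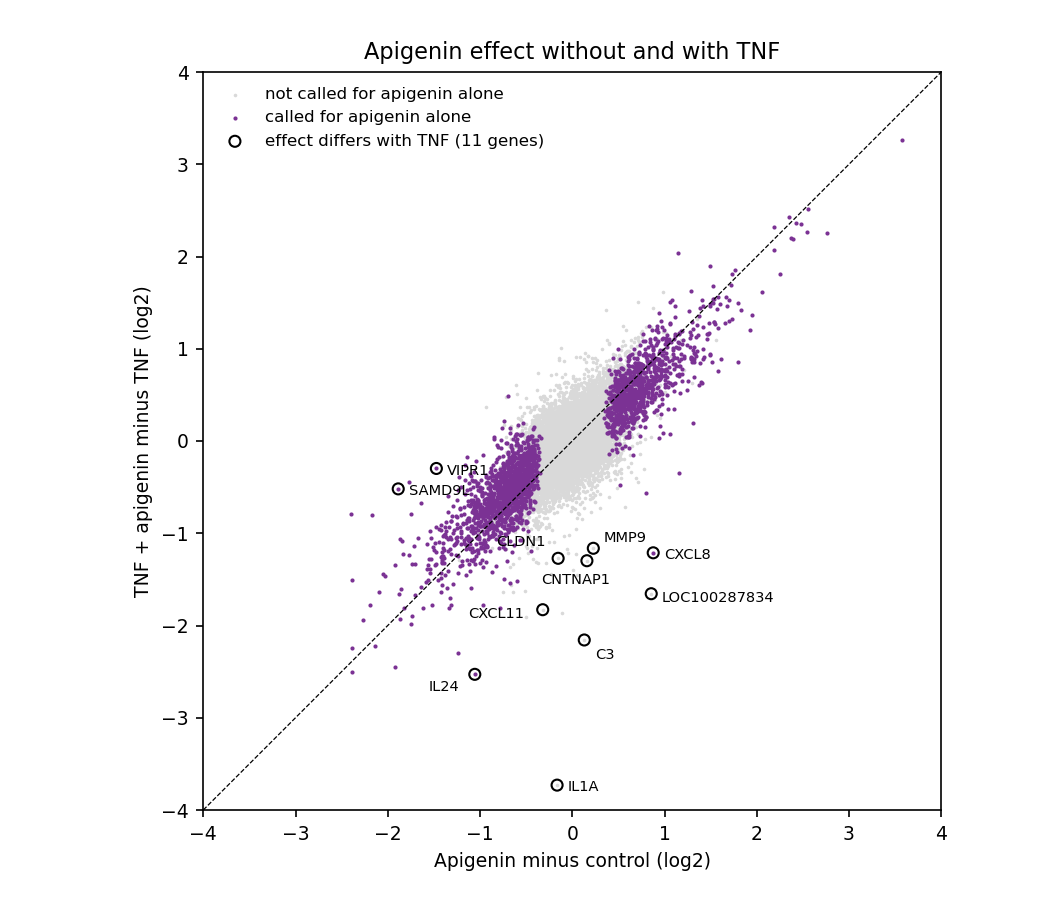
Difference made by apigenin in cells given TNFα (log2, vertical) against the difference made by apigenin alone (log2, horizontal) for all genes, with the 11 genes whose differences were called unequal circled. Most points lie along the diagonal, and IL1A, C3 and CXCL8 lie far below it.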

How the data were processed

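Per the labels' protocols, total RNA came from a TRIzol/chloroform extraction and was labelled for whole-transcript arrays with biotin, and hybridised to 12 Affymetrix arrays in 4 groups of 3. The authors deposited 1 log2 value per probe set and array. Affymetrix Expression Console is the program that the submitters' processing notes name. Its version, algorithm, settings and the genome build: not given in the sources used here. As the values are already summarised, probe positions and probe-level quality were not used here, and values near the low end of the scale understate changes.

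Of 53617 probe sets, 23871 had exactly 1 gene symbol. Probe sets at or above the 25th percentile of their array (1.60 to 1.64) on at least 3 arrays were kept, and a gene was read from its probe set with the highest mean over the 12 arrays, which left 20572 genes. Among called genes 66 had several kept probe sets. For 21 of these 66 some probe set had the opposite sign, and for 1 it was called in that opposite direction. All 12 arrays entered 1 limma fit (version 3.58.1, R 4.3.3, default eBayes) of 4 group means, with Benjamini-Hochberg adjustment over the 20572 genes and a threshold of 0.05. The number of arrays limits the precision; the median SE of a difference was 0.15. On simulated data with the same 20572 genes, 100 genes were changed by 0.7 and 100 by 1 on the log2 scale, with independent normal noise. Of these 50% and 76% were recovered, with 3 false calls among 129. Far fewer genes changed there than were called here (11.4%), and the simulated arrays shared no noise. The rates therefore do not carry over to these data. Genes were named by a rule: the 15 largest increases and 15 largest decreases among called genes with separate groups (non-coding and provisional symbols left out), up to 4 called members per list in each direction, genes whose apigenin effect differed with TNFα, and a panel of 41 genes, of which 38 were measured and the others are not analysed here. Members and lists were chosen with earlier results of these data known.

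Gene lengths, promoters and the microRNA sequence come from RefSeq tables of GRCh38.p14, matched by symbol. Promoters were matched for 71.5% of tested and 81.6% of called genes, and lengths for 98.9% of called genes. Residuals of same-numbered control and apigenin arrays correlated at 0.102, 0.269 and 0.332, and same-numbered arrays over all pairs of the 4 groups at 0.0182 to 0.464. The numbers may thus pair these 2 groups, which is read from the data and not from the labels. The reported fit did not use that pairing, so its 2342 calls, SEs and p-values are unpaired. With the replicate number as a block 3501 genes were called. The alternatives were the replicate number as a block, quantile normalisation, other filters and probe set rules, a trended robust variance, the 6 arrays alone, a small nucleolar RNA covariate, and leaving out each array or all those numbered 3.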

Additional observations from a re-analysis of the deposited data

Results flagged for a closer look

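The effect of apigenin alone and its effect beside TNFα differed, by the test of the difference itself in limma, for 11 genes, and 4 of these were also called with apigenin alone. The differences of effects (with TNFα minus without it, log2) were -3.57 for IL1A, -2.51 for the provisional gene LOC100287834, -2.29 for C3, -2.09 for CXCL8, -1.51 for CXCL11, -1.47 for IL24, -1.46 for CNTNAP1, -1.39 for MMP9, -1.12 for CLDN1, 1.37 for SAMD9L and 1.18 for VIPR1. IL1A and C3 were called in all 20 fits. CXCL8 was called in 10 of them and the other 8 genes in 4 to 8. IL24, an interleukin of the IL-10 family, read 3.64, 3.80 and 4.10 in control and 2.79, 2.68 and 2.91 with apigenin, without overlap, and fell by 1.06 alone and by 2.53 beside TNFα. SAMD9L read 5.41, 5.67 and 5.68 with TNFα and 5.11, 4.96 and 5.14 with both agents, so its decrease was 1.89 alone and 0.52 beside TNFα. CXCL11, CNTNAP1, MMP9 and CLDN1 were not called with apigenin alone.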

How the results depend on the processing

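In the fits tried, no named called gene changed sign, but the balance of calls turned from more lower to more higher in 2 of them. The 2342 genes called became 1290 with the small nucleolar RNA covariate and 1505 without the arrays numbered 3, and 1534 (without apigenin array 1) to 2050 when 1 array was left out. The 936 higher became 1435 with the replicate block and 607 (without apigenin array 3) to 982. The 1406 lower became 611 with that covariate, 873 without the arrays numbered 3, and 897 (without control array 3) to 1412; apigenin array 1 gave 900 and apigenin array 2 gave 922. The share called higher, 40.0% as reported, was 52.6% with the covariate (679 higher, 611 lower) and 52.3% without control array 3 (982 higher, 897 lower). The 11 differences of effects became 3 with trended robust variances, 5 with the covariate, 2 without the arrays numbered 3, and 2 to 6 when 1 array was left out. The pairing by replicate number, as a block, called 3501 genes and lost none of the 2342. Of 312 named called genes, 216 were called in all 6 fits without 1 of the 6 arrays and 183 in every fit. Quantile normalisation gave 3062. The causes were not tested. Signal near background limits calls at low levels. Probe sets without a single symbol were 1.84% called (424 of 23036).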
